A study of Homo sapiens with 9 samples.

Results

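This report describes the oncofetal and growth factor genes of liver in HepG2 cells, a human line from a liver cancer, with and without a guide RNA against KEAP1. The genes named were AFP, ALB, GPC3, IGF2, IGF2BP1, IGF2BP3, IGFBP1, IGFBP2, DLK1 and AFM. They were found by matching the gene number of each row of the count table to these symbols. Of the 10 genes, 9 were found among 11746 rows with a gene number, and all 9 passed the filter on low counts, as did 11064 rows in all. The RNA level of AFM was not analysed here. The genes were chosen by their place in liver growth and with the fold changes and calls of these same contrasts already known, so their levels and fold changes are given as a description with no p-value for any of them, and counts of calls stand beside those over all features.

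RNA was collected 48 h after seeding from 3 groups of 3 libraries, and every group carried lentiCRISPRv2, which encodes Cas9 and a guide. The sgCtrl cells had a guide to AAVS1 (treatment label sgAAVS168), a locus widely used as a neutral target, and the sgKeap1-1 and sgKeap1-2 cells had different guides to KEAP1. All were populations selected with puromycin, with no cloning step described, so a group may mix edited and unedited cells, and no siRNA was used. The labels do not say whether the 3 libraries of a group came from separate cultures, and p-values measure only the spread between these samples.

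AFP encodes alpha-fetoprotein, the main plasma protein of the fetus, which is shut down after birth and is often made again by liver cancers. ALB encodes albumin, its adult counterpart and neighbour in the genome, and hepatocytes make both under factors such as HNF4A and the FOXA and C/EBP families. Insulin-like growth factor 2 (IGF2) is a fetal growth factor that signals through IGF1R and the insulin receptor, is cleared by IGF2R and is held in the blood by IGF binding proteins such as IGFBP1 and IGFBP2. IGF2BP1 and IGF2BP3 are RNA-binding proteins of the embryo that were named for binding IGF2 mRNA. GPC3 is a cell-surface heparan sulfate proteoglycan and DLK1 a membrane protein of the hepatoblast, related to the ligands of Notch. KEAP1 marks the transcription factor NRF2 for degradation, so NRF2 builds up where KEAP1 is lost.

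The counts come from QuantSeq, which reads the 3' end of polyadenylated RNA, and a library held between 3011644 and 4725840 reads in rows with a gene number (median 3758185). Values below are CPM (reads of a gene relative to all reads of its library, scaled by TMM), fold changes are log2 values with their standard error (SE) from edgeR's quasi-likelihood fit, and a mean is given with its SD over 3 libraries. Of 15 NRF2 target genes tested, 14 rose with sgKeap1-1 and 15 with sgKeap1-2 by edgeR with Benjamini-Hochberg adjustment, where 2.8% and 5.97% of all features tested did. AKR1B10, TXNRD1 and OSGIN1 were among them. KEAP1 mRNA itself was 79.2 ± 13.9 CPM in sgCtrl, 59.9 ± 5.77 in sgKeap1-1 and 80.4 ± 5.98 in sgKeap1-2, and a guide need not lower the mRNA that it cuts. All 10 hepatocyte markers were in the table, and their summed level ranged from 28840 to 38660 CPM in sgCtrl, 18710 to 23930 in sgKeap1-1 and 16040 to 18820 in sgKeap1-2. ALB, itself one of the 9 genes, is part of that sum, as are TF and FGB, which fell, and TTR, which rose, all described below. Of 6 stellate cell and fibroblast markers, COL1A1 and PDGFRB were in the table, with a sum between 6.15 and 15.8 CPM in any library. None of 5 endothelial markers was in it. Of 6 blood markers CD14, CD68 and LYZ were in it, with sums of 964.5 to 1810 CPM in sgCtrl, 1001 to 2542 in sgKeap1-1 and 685 to 1540 in sgKeap1-2, and PTPRC, HBB and HBG1 were not. In bulk RNA, fewer cells with a transcript and less of it per cell cannot be told apart.

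AFP and ALB lie side by side on chromosome 4 and on the same strand. In GRCh37 with GENCODE v44 lifted to it, ALB spans chr4:74262831-74287199 and AFP chr4:74296855-74321891, with 9655 bases between them, and AFM follows AFP after 25570 bases. The promoters of both genes, from 250 bases before to 50 bases after the start site, are shown because these neighbours had the lowest fold changes of the list. That of IGF2BP3, a gene of even level, is shown for contrast. They are RefSeq sequences on GRCh38.p14, AFP at chr4:73435971-73436270 and ALB at chr4:73404037-73404336 on the plus strand, and IGF2BP3 at chr7:23470442-23470741 on the minus strand. Capitals mark the CCAAT box where it was found, as CCAAT on the strand shown or as its reverse complement ATTGG.
AFP promoter: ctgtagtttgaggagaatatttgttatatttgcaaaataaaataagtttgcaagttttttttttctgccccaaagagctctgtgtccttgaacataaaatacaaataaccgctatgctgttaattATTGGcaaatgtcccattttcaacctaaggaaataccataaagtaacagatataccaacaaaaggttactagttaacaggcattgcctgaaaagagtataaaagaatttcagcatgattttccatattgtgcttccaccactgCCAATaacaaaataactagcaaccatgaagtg
ALB promoter: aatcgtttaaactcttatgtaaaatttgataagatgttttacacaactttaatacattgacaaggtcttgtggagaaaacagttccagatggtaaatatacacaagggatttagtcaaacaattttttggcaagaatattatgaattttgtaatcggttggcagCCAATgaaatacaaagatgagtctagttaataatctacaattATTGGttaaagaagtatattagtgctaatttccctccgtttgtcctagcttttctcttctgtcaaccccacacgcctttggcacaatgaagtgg
IGF2BP3 promoter: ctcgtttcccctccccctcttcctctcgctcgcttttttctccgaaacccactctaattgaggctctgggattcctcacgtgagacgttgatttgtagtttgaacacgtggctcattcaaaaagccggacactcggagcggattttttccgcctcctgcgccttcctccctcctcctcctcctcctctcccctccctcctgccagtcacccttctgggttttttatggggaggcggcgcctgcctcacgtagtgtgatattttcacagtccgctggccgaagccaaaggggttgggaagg

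The CCAAT box, a common promoter element, occurred 2 times in the AFP window and 2 times in the ALB window. The IGF2BP3 and AFM windows held none, and of the 3 windows of IGFBP2 1 held a match. Over 35116 RefSeq promoter windows of the same length, 34.6% held it. TATAAA was present once in the AFP and the AFM window and absent from those of ALB, IGF2BP3 and IGFBP2, and 11.5% of all windows held it. The core of the antioxidant response element, TGACNNNGC, the kind of element that NRF2 binds, was not found on either strand in any window of AFP, ALB, AFM, IGF2BP3 or IGFBP2, while 13.3% of all windows held it. Each motif was counted on its own, on both strands. GC content was 33.0% for AFP, 33.3% for ALB and 56.3% for IGF2BP3. No window was found for GPC3, IGF2, IGF2BP1, IGFBP1 or DLK1.

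AFP was the gene of the list with the widest difference from sgCtrl. It stood at 5380, 6894 and 5783 CPM in sgCtrl, at 2017, 3140 and 2336 in sgKeap1-1, and at 1145, 1384 and 929 in sgKeap1-2. The groups did not overlap and fell in the order sgCtrl, sgKeap1-1, sgKeap1-2 from high to low. AFP was 2.41-fold lower with sgKeap1-1 (log2 fold change -1.27, SE 0.18) and 5.22-fold lower with sgKeap1-2 (-2.38, SE 0.19). Between the guides it was 2.17-fold lower with sgKeap1-2 (-1.12, SE 0.18). Ranked from the lowest fold change of 11064 features, AFP was number 71 with sgKeap1-1 and number 26 with sgKeap1-2.

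ALB followed the same order with smaller steps. It was the row with the most reads in sgCtrl, at 13590, 16310 and 11020 CPM. The sgKeap1-1 libraries held 5367, 7753 and 6024 CPM and the sgKeap1-2 libraries 4276, 5181 and 3489, again with no overlap between any of the groups. ALB was 2.14-fold lower with sgKeap1-1 (-1.10, SE 0.19) and 3.16-fold lower with sgKeap1-2 (-1.66, SE 0.19), and 1.48-fold lower with the second guide than with the first (-0.56, SE 0.18). By summed reads ALB went from rank 1 in sgCtrl to rank 5 in sgKeap1-1 and rank 13 in sgKeap1-2, and AFP from rank 7 to ranks 30 and 92.

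IGF2, the growth factor of the list, lay at 1702, 1950 and 1304 CPM in sgCtrl and at 993, 1090 and 942 in sgKeap1-1. With sgKeap1-2 it was at 412, 443 and 751 CPM, and the last of these, replicate 3, stood apart from the other sgKeap1-2 libraries. The groups were nonetheless ordered without overlap, as for AFP and ALB. IGF2 was 1.64-fold lower with sgKeap1-1 (-0.71, SE 0.21) and 3.08-fold lower with sgKeap1-2 (-1.62, SE 0.22), with a difference of -0.91 (SE 0.22) between the guides. Without replicate 3 of sgKeap1-2 the log2 fold change with that guide was -1.95. It was -1.47 without replicate 1 of that group and -1.495 without its replicate 2. With replicate 2 left out of all groups, a setting added after the data were seen, it was -1.36. In GRCh37 the gene spans chr11:2150342-2179621 on the minus strand. Its exons overlap those of INS-IGF2 on the same strand and of IGF2-AS on the other, so reads of these transcripts cannot be told apart from its own here.

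These 3 genes were the only ones of the 9 found whose libraries kept that order with no overlap, which 1.27% of all features tested did. Called lower by edgeR were AFP and ALB with both guides and IGF2 with sgKeap1-2. This made 2 of 9 genes with sgKeap1-1, where 1.4% of all features were called lower, 2.8% higher and 4.2% in all. With sgKeap1-2 it made 3 of 9, where 4.85% were called lower, 5.97% higher and 10.8% in all. Lower with each of the guides were 1.37% of features. Since the list was chosen with these contrasts known, nothing is read from its counts. No gene of the list was called higher in this fit, which had the group as its only factor. In the direct comparison of the guides 0 of 9 were called by edgeR in the same fit, where 0.0181% of all features were. At an unadjusted p under 0.05 there were 3 of 9, where 5.08% of all features were. DESeq2 called 2 of 9 (AFP and IGF2), where it called 0.19% of features, and limma-voom called 0 of 9, where it called 0% of features. The 9 genes had a median log2 fold change of -0.00 for the first guide and -0.15 for the second, against -0.00 and -0.01 for all features. Both contrasts share the sgCtrl libraries.

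**Figure D1:**
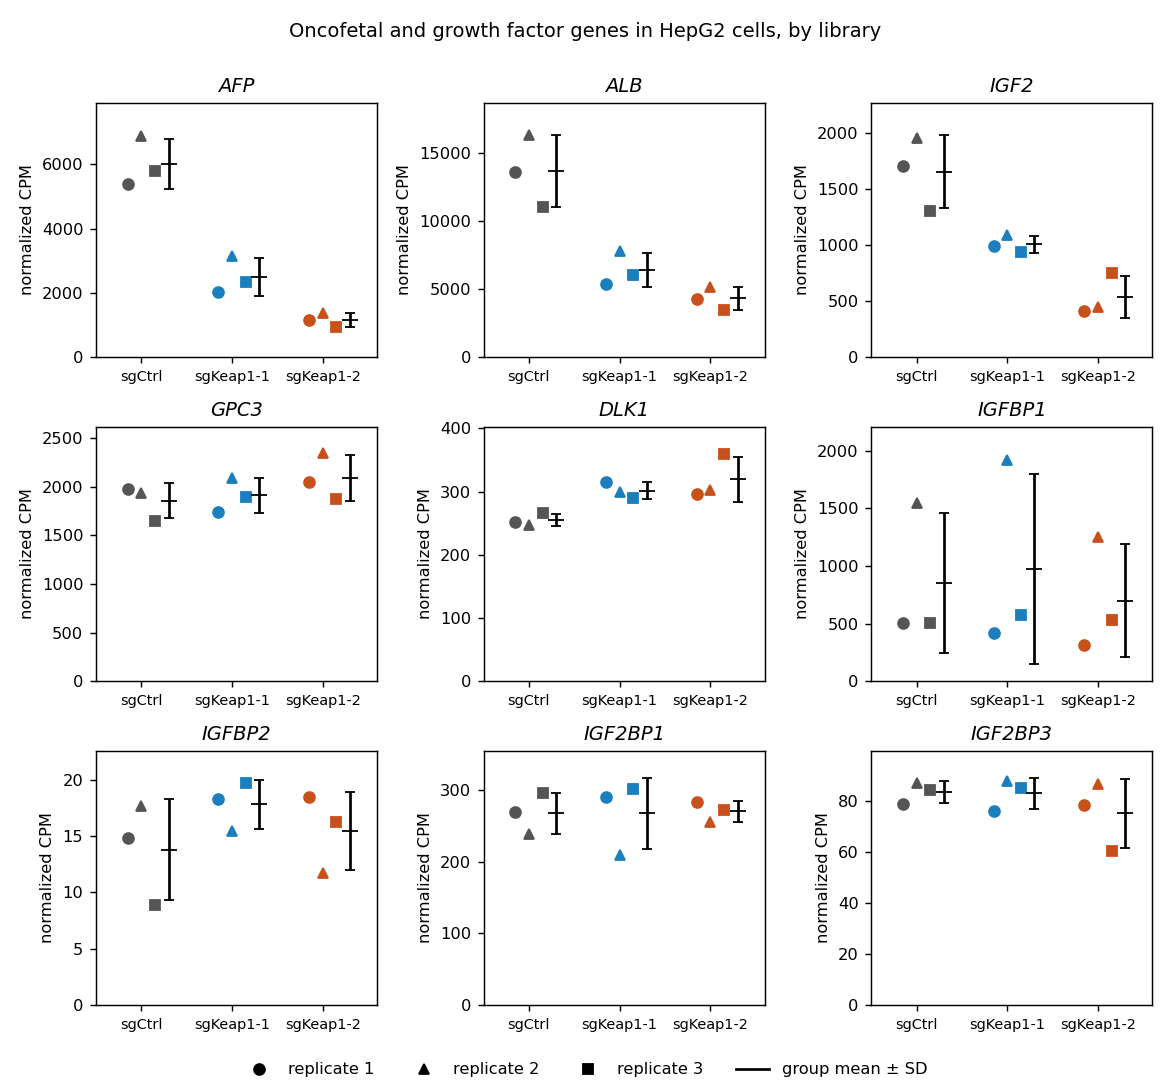
CPM scaled by TMM (vertical axis) of the 9 genes in each library of sgCtrl, sgKeap1-1 and sgKeap1-2 (horizontal axis), with the mean and SD of each group as a bar beside the points. AFP, ALB and IGF2 step down from group to group without overlap, while IGFBP1 is split by replicate 2, at 1250 to 1918 CPM in every group.

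The neighbours AFP and ALB differed from sgCtrl by unlike factors with sgKeap1-2. A ratio of 2 genes in one library does not depend on how libraries are scaled. In sgCtrl there were 0.396, 0.423 and 0.525 AFP reads per ALB read, and in sgKeap1-1 0.376, 0.405 and 0.388, so these groups overlapped. In sgKeap1-2 the ratios were 0.268, 0.267 and 0.266, below every other library. On the log2 scale the mean ratio was -1.17 ± 0.21 in sgCtrl, -1.36 ± 0.05 in sgKeap1-1 and -1.90 ± 0.0043 in sgKeap1-2. The sgKeap1-2 libraries held 3725, 5682 and 3839 AFP reads, and sampling of reads alone scatters such ratios by more than 0.0043. That small SD over 3 libraries is therefore not read as a fixed ratio. The ratio was thus lower by 0.73 with sgKeap1-2 than in sgCtrl (log2 difference -0.73) and by 0.54 than with sgKeap1-1 (-0.54). The difference of sgKeap1-1 from sgCtrl was -0.19, with overlap. These differences were not tested.

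The 9 genes together took 2.45 ± 0.38% of the counted reads in sgCtrl, 1.34 ± 0.25% in sgKeap1-1 and 0.949 ± 0.156% in sgKeap1-2. AFP and ALB made up most of it, between 1.69% and 2.27% in the sgCtrl libraries, between 0.748% and 1.06% in sgKeap1-1 and between 0.433% and 0.653% in sgKeap1-2. Scaling the libraries without the 9 genes left 2 and 3 of them called with the first and the second guide.

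**Figure D2:**
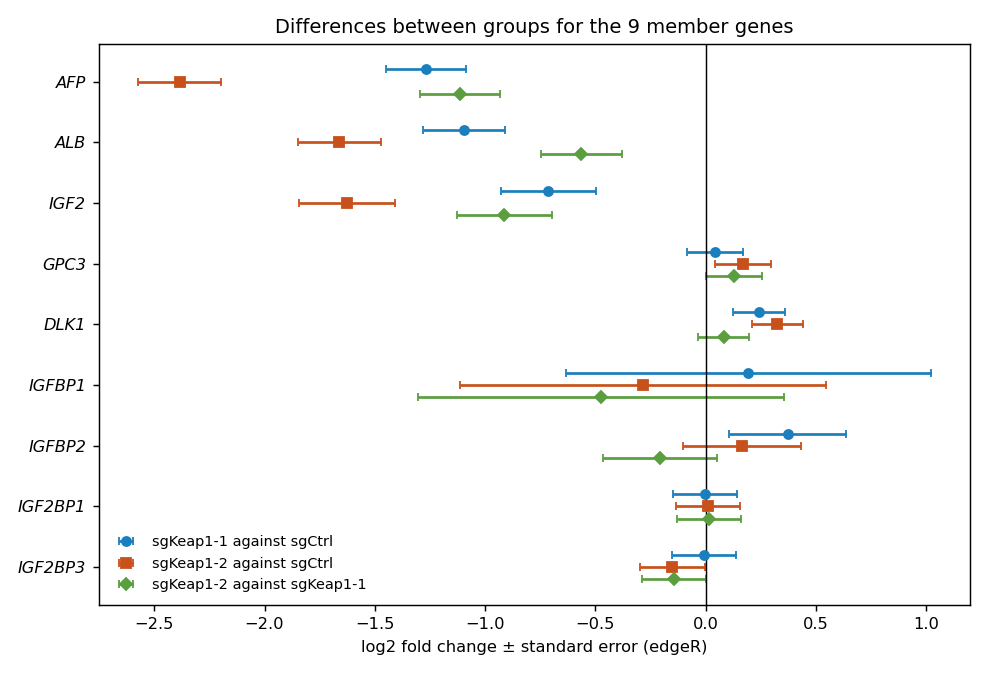
Log2 fold change (horizontal axis, with SE) of each of the 9 genes for sgKeap1-1 against sgCtrl, sgKeap1-2 against sgCtrl, and sgKeap1-2 against sgKeap1-1. AFP, ALB and IGF2 lie below 0 in all contrasts, with AFP at -2.38 for sgKeap1-2, and the widest bars are those of IGFBP1, with an SE of 0.83.

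GPC3, the glypican of the list, was about level between the groups. It lay at 1978, 1939 and 1649 CPM in sgCtrl, at 1744, 2096 and 1896 in sgKeap1-1 and at 2047, 2345 and 1877 in sgKeap1-2, with overlap throughout. Its log2 fold changes were 0.04 and 0.17 for the first and the second guide (SE 0.13 for each), with 95% intervals from -0.23 to 0.32 and from -0.10 to 0.45. GPC3 is on the X chromosome, at chrX:132669773-133121127 on the minus strand of GRCh37.

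DLK1, the hepatoblast membrane protein, was slightly higher with both guides. It measured 252, 247 and 266 CPM in sgCtrl, 316, 299.9 and 289 in sgKeap1-1, and 296, 302 and 360.1 in sgKeap1-2. Every library with a KEAP1 guide was above every sgCtrl library, as 11.5% of all features were with sgKeap1-1 and 14.3% with sgKeap1-2. Its log2 fold changes were 0.24 and 0.33 for the first and the second guide (SE 0.12 for each), and the guides overlapped. DLK1 was not called with either guide in the fit with the group alone. It lies at chr14:101192042-101204561 on the plus strand.

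IGFBP1, a hepatocyte protein that binds IGFs in the blood and responds to insulin and stress, differed more between replicate numbers than between groups. The sgCtrl libraries held 500.5, 1550 and 503 CPM, the sgKeap1-1 libraries 421, 1918 and 577, and the sgKeap1-2 libraries 312, 1250 and 534. Replicate 2 was the high library in all 3 groups. It lay above the mean of replicates 1 and 3 by 1.63, 1.96 and 1.61 on the log2 scale in sgCtrl, sgKeap1-1 and sgKeap1-2, a mean difference of 3.32-fold, which ranked 17 of 11064 features. Over all features the median of that difference was -0.00 and the range from the 5th to the 95th percentile ran from -0.50 to 0.59. In the same libraries the difference was 0.42 for AFP and 0.43 for ALB as a mean over the groups, and -0.29 for IGF2BP1.

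The fold change of IGFBP1 accordingly had a wide error, 0.19 with sgKeap1-1 and -0.28 with sgKeap1-2 (SE 0.83 for each). As single libraries were left out, these values ran from -0.78 to 0.95 and from -0.998 to 0.48, turning sign. With replicate 2 left out of all groups it was -0.02 (SE 0.24) and -0.23 (SE 0.24), a choice made after the data were seen. The labels give no meaning for the prefix that libraries of one number share. IGFBP1 lies at chr7:45927959-45933259 on the plus strand.

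**Figure D3:**
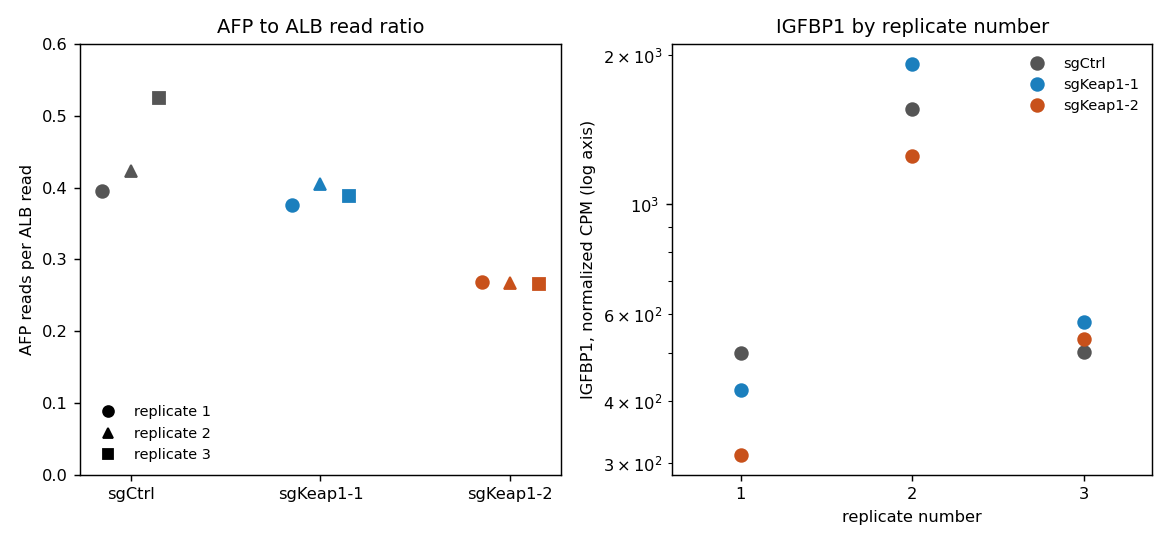
Left, AFP reads per ALB read (vertical axis) in each library by group. Right, IGFBP1 in CPM scaled by TMM on a log axis against the replicate number, with a colour for each group. The sgKeap1-2 libraries lie near a ratio of 0.267, closer together than sampling of reads would usually leave them, and replicate 2 holds the highest IGFBP1 value of each group.

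IGFBP2, the other binding protein of the list, rested on few reads, with a mean of 59.6 counts per library. It was at 14.8, 17.7 and 8.91 CPM in sgCtrl, 18.2, 15.5 and 19.7 in sgKeap1-1, and 18.5, 11.7 and 16.2 in sgKeap1-2. All groups overlapped, and the log2 fold changes were 0.37 (SE 0.26) and 0.16 (SE 0.27), with 95% intervals from -0.19 to 0.94 and from -0.41 to 0.74. IGFBP2 lies at chr2:217497551-217529159 on the plus strand.

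The RNA-binding proteins of the list overlapped between all groups. IGF2BP1 measured 269, 239 and 296 CPM in sgCtrl, 291, 210.0 and 301 in sgKeap1-1, and 284, 255 and 272 in sgKeap1-2. Its log2 fold changes were -0.00 and 0.01 for the first and the second guide (SE 0.14 for each), with 95% intervals from -0.31 to 0.31 and from -0.30 to 0.32. It lies at chr17:47074747-47133507 on the plus strand. There it overlaps AC105030.1 on the same strand and ENSG00000250838 and ENSG00000251461 on the other. IGF2BP3 measured 78.9, 87.4 and 84.7 CPM in sgCtrl, 76.2, 88.1 and 85.1 in sgKeap1-1, and 78.7, 86.7 and 60.5 in sgKeap1-2.

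The lowest of those IGF2BP3 values was in replicate 3 of sgKeap1-2, the library with the highest IGF2 of its group. That library stood apart for some other genes too, such as NOTUM, at 64.86 CPM against 346 and 375.2 in replicates 1 and 2. Its counts differed from those of replicates 1 and 2 by a chi-square over its degrees of freedom of 14.98 and 24.15. Between replicates 1 and 2 that value was 6.621. Replicate 2 of sgKeap1-1 also stood apart, at 16.17 and 17.91. A link between IGF2BP3 and IGF2 was not tested. The log2 fold change of IGF2BP3 was -0.01 (SE 0.15) and -0.15 (SE 0.15), and the groups overlapped. There were 2.73 to 3.49 IGF2BP1 reads per IGF2BP3 read in sgCtrl, 2.38 to 3.82 in sgKeap1-1 and 2.94 to 4.50 in sgKeap1-2. IGF2BP3 lies at chr7:23349828-23510110 on the minus strand, and its exons overlap MALSU1 on the other strand.

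Among the other genes of the IGF axis tested, IGFBP6 had the largest change. This and the following lists were written with earlier results of these data known, so their counts are a description too. Of 21 further ligands, receptors, binding proteins and adaptors, 12 were tested, and by edgeR 2 rose and 0 fell with sgKeap1-1, and 3 rose and 1 fell with sgKeap1-2, where 4.2% and 10.8% of all features were called. The median log2 fold change over the 12 genes was 0.38 and 0.35, against -0.00 and -0.01 for all features. IGFBP6, a binding protein that prefers IGF2, had 6, 7 and 16 reads in the sgCtrl libraries, 126, 151 and 118 in sgKeap1-1 and 128, 124 and 169 in sgKeap1-2. It rose by 3.47 (SE 0.29, adjusted p = 7.1e-06 by edgeR) and 3.69 (SE 0.29, adjusted p = 1.68e-06 by edgeR) on the log2 scale. The sgCtrl reads alone would not have passed the filter on low counts, so IGFBP6 could only be called higher.

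IGFBP4, also a binding protein, rose with sgKeap1-2, from 26.4 ± 9.26 to 62.8 ± 3.95 CPM (log2 fold change 1.26, edgeR adjusted p = 0.000968). With sgKeap1-1 it was at 42.8 ± 3.99 CPM (0.71, edgeR adjusted p = 0.0726). SHC1, an adaptor of growth factor receptors, rose from 74.2 ± 7.6 CPM to 139 ± 17.6 with sgKeap1-1 and 174 ± 12.2 with sgKeap1-2 (edgeR adjusted p = 0.00109 and 3.93e-05). GRB14, an adaptor that inhibits the insulin receptor, fell with sgKeap1-2 on 3 to 23 reads per library (-1.73, SE 0.53, edgeR adjusted p = 0.0492), a call that held in 3 of 9 fits that each left out 1 library (largest adjusted p 0.16). The receptors IGF1R, IGF2R and INSR did not pass the test with either guide. IGF1R measured 57.8 ± 8.06 CPM in sgCtrl and 59.3 ± 12.1 and 65.0 ± 14.2 with the guides, and IGF2R 180.0 ± 19.5, 282 ± 16.1 and 261 ± 100.5. The sgKeap1-2 libraries of IGF2R were at 320.1, 318 and 145 CPM, so that replicate 3 stood apart, and every sgKeap1-1 library was above every sgCtrl library.

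**Figure D4:**
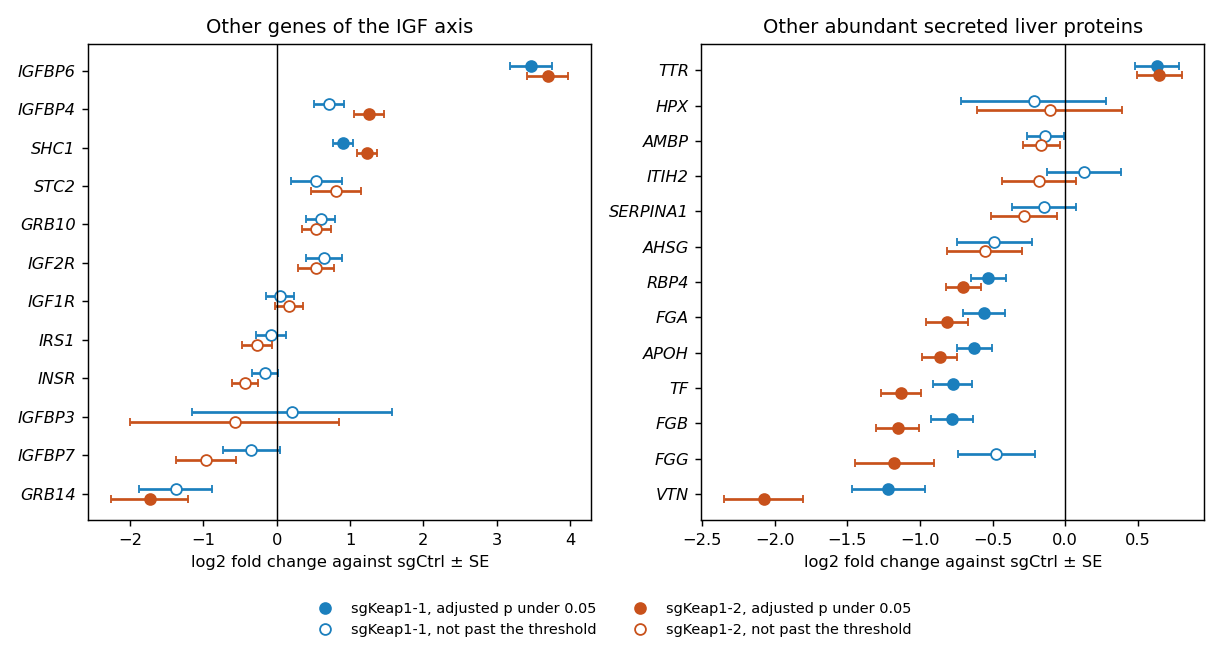
Log2 fold change against sgCtrl (horizontal axis, with SE) of further IGF axis genes (left) and of other abundant secreted liver proteins (right), filled where the edgeR adjusted p was under 0.05. IGFBP6 stands at 3.47 and 3.69, and VTN is the lowest of the secreted proteins at -1.22 and -2.08.

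Several other abundant secreted proteins of the liver fell. Of 13 tested beside AFP and ALB, 1 rose and 6 fell with sgKeap1-1, and 1 rose and 7 fell with sgKeap1-2, where 1.4% and 4.85% of all features were called lower. The median log2 fold changes were -0.49 and -0.70. VTN, which encodes the adhesion protein vitronectin, fell from 47.3 ± 8.65 CPM to 20.5 ± 7.57 and 11.2 ± 2.82 (edgeR adjusted p = 0.0114 and 0.000148). FGB, the beta chain of fibrinogen, fell from 1275 CPM in sgCtrl to 742 and 572 (edgeR adjusted p = 0.00575 and 0.000125). TF, the iron carrier transferrin, fell by 0.78 and 1.13 on the log2 scale (edgeR adjusted p = 0.0031 and 7.63e-05). The exception was TTR, the thyroid hormone carrier transthyretin, which rose by 0.63 and 0.65 (edgeR adjusted p = 0.0297 and 0.0131) and is named after its value was seen. As each of the 9 libraries was left out, the call of TTR held in 5 fits with sgKeap1-1 and 7 with sgKeap1-2, and that of VTN with sgKeap1-1 in 6 (largest edgeR adjusted p 0.165, 0.0793 and 0.0754). Among the others that fell with sgKeap1-1, APOH held in 8 fits, RBP4 in 5 and FGA in 4, and FGG with sgKeap1-2 held in 8.

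Of 13 transcription factors analysed here that are known to act at the AFP and ALB promoters and enhancers, 0 rose and 1 fell with sgKeap1-1, and 2 rose and 2 fell with sgKeap1-2, beside 4.2% and 10.8% of all features called. ONECUT1, a hepatocyte factor also called HNF6, fell from 23.2 ± 0.665 CPM to 8.65 ± 2.2 with sgKeap1-1 and 6.24 ± 0.371 with sgKeap1-2 (edgeR adjusted p = 0.00158 and 0.000103). The other gene that fell with sgKeap1-2 was HNF4A (-0.56, edgeR adjusted p = 0.0126), and those that rose were NFIC and ZBTB20, a repressor of AFP in the adult liver. ZBTB20 rose by 0.81 on the log2 scale with sgKeap1-2 (edgeR adjusted p = 0.00771) and was at 0.51 with sgKeap1-1 (edgeR adjusted p = 0.141). NFIC rose by 0.56 with sgKeap1-2 (edgeR adjusted p = 0.00936). These calls held in 6 of 9 fits for HNF4A and 8 for NFIC as each library was left out. Genes of this and the following lists past the threshold with sgKeap1-2 alone are named after their values were seen.

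Among 10 imprinted genes tested beside IGF2 and DLK1, which are both expressed from the paternal copy, 0 rose with either guide, 2 fell with sgKeap1-1 and 4 with sgKeap1-2, beside the same 1.4% and 4.85%. The median log2 fold change was -0.34 and -0.69. PEG10, a gene derived from a retrotransposon and expressed in many liver cancers, fell from 3024 CPM to 1646 with sgKeap1-1 and 1173 with sgKeap1-2 (edgeR adjusted p = 0.00031 and 3.3e-06). SNRPN fell from 289.8 ± 22.8 CPM to 180.3 ± 14.3 and 163 ± 11.4 (edgeR adjusted p = 0.0032 and 0.000384). PEG3 (-0.55, edgeR adjusted p = 0.0279) and DDC (-0.87, edgeR adjusted p = 0.00617) fell with sgKeap1-2, and neither was called between the guides. The call of PEG3 held in 5 of 9 fits as each library was left out.

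Some markers of hepatoblasts and liver tumours rose. Of 11 hepatoblast and liver tumour markers tested, 3 rose with each guide, where 2.8% and 5.97% of all features were called higher, and 0 fell with sgKeap1-1 and 1 with sgKeap1-2. SPP1, the secreted phosphoprotein osteopontin, rose from 175 ± 32.6 CPM to 1097 ± 300.5 and 1480 ± 506 (edgeR adjusted p = 0.000481 and 9.08e-05). KRT19, a keratin of bile duct and progenitor cells, rose from 230.5 ± 33.5 CPM to 561 ± 119 and 644 ± 157 (edgeR adjusted p = 0.00193 and 0.000346). SPINK1, a secreted trypsin inhibitor, rose by 1.93 and 1.56 on the log2 scale (edgeR adjusted p = 0.00219 and 0.00593). PROM1, a stem cell surface marker, fell with sgKeap1-2 (-1.67, edgeR adjusted p = 0.00143). EPCAM, SOX9, CD24, MDK, TFRC, ACSL4 and CLDN6 were not called with either guide. The median log2 fold change over the 11 markers was 0.18 and 0.12, against -0.00 and -0.01 for all features.

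Beside GPC3, 9 genes of other glypicans and of heparan sulfate synthesis were tested, and 1 rose and 1 fell with each guide, beside the same 4.2% and 10.8%. GPC1, another glypican, rose from 10.1 ± 1.65 CPM to 35.5 ± 6.88 and 49.4 ± 8.82 (edgeR adjusted p = 0.000173 and 1.05e-05). NDST1, which sulfates heparan sulfate chains, fell by 0.81 and 0.96 on the log2 scale (edgeR adjusted p = 0.0161 and 0.00278), the first of which held in 5 of 9 fits as each library was left out (largest adjusted p 0.0822).

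Beside DLK1, 8 Notch pathway genes were tested, of which 2 rose and 0 fell with sgKeap1-1, and 3 rose and 1 fell with sgKeap1-2, beside 4.2% and 10.8% of all features called. NOTCH3, one of the receptors, had 1, 0 and 1 reads in the sgCtrl libraries, 83, 97 and 37 in sgKeap1-1 and 73, 119 and 78 in sgKeap1-2 (edgeR adjusted p = 1.6e-05 and 2.79e-06). HEY1, a transcriptional target of Notch, rose by 3.13 and 3.50 on the log2 scale (edgeR adjusted p = 0.000606 and 9.39e-05), from 2, 7 and 5 reads in sgCtrl. With so few reads there, NOTCH3 and HEY1 passed the filter on low counts only through the libraries with a KEAP1 guide. They could thus only be called higher. Of the rest, the ligand JAG1 rose by 1.96 with sgKeap1-2 (edgeR adjusted p = 0.011), and NOTCH2 fell by 1.31 (edgeR adjusted p = 0.039), which held in 3 of 9 fits as each library was left out.

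Of 7 further RNA-binding and chromatin genes active in the embryo, 1 rose and 0 fell with sgKeap1-1, and 1 rose and 1 fell with sgKeap1-2, beside the same 4.2% and 10.8%. HMGA1, a chromatin protein, rose with both guides, from 446 ± 35.6 CPM to 709 ± 87.4 and 692 ± 138 (edgeR adjusted p = 0.0173 and 0.0129). IGF2BP2, the third gene of the IGF2BP family, fell with sgKeap1-2 from 147 ± 7.46 to 105 ± 10.4 CPM (-0.48, edgeR adjusted p = 0.0212). As each of the 9 libraries was left out, the calls of HMGA1 held in 5 and 8 fits and that of IGF2BP2 in 6. Of 22 growth factors and receptors of hepatocytes, 1 rose and 2 fell with sgKeap1-1, and 3 rose and 5 fell with sgKeap1-2, beside the same 4.2% and 10.8%. PDGFA, a ligand of the PDGF receptors, rose by 3.01 and 3.19 on the log2 scale from 5 to 8 reads in the sgCtrl libraries (edgeR adjusted p = 1.87e-05 and 4.6e-06). PDGFA passed the filter on low counts only through the libraries with a KEAP1 guide, so it could only be called higher. KLB, the coreceptor for FGF19 and FGF21, fell by 0.87 and 0.76 (edgeR adjusted p = 0.00626 and 0.00803). EGFR fell by 0.78 and 0.81 (edgeR adjusted p = 0.0401 and 0.0177), held in 3 and 6 of 9 fits as each library was left out. With sgKeap1-2 AREG and BMP4 also rose, and ERBB2, TGFA and FGFR4 also fell. As each of the 9 libraries was left out, these calls held in 6, 7, 9, 5 and 5 fits, in that order. In the direct comparison of the guides edgeR called none of the genes in these lists.

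The features whose profile over the 9 libraries was most like that of AFP were FABP1, the fatty acid binding protein of liver, and SCN9A, a sodium channel gene. Each profile was taken relative to its own sgCtrl mean, and the root mean square difference from AFP was 0.283 and 0.354 on the log2 scale, among 7970 features compared. FABP1 had log2 fold changes of -1.02 and -2.16 for the first and the second guide. Nearest to ALB were IL1RN, the antagonist of the interleukin-1 receptor, and SLC1A2, a glutamate transporter gene, with differences of 0.192 and 0.243. The log2 fold change of IL1RN was -1.11 and -1.52.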

How the data were processed

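RNA was sequenced from 9 libraries of HepG2 cells in 3 groups, named from the sample titles. Per the paper's methods and the submitters' processing notes, the authors trimmed reads with cutadapt (1.16), aligned them with STAR (2.7.5b) and counted them with featureCounts (1.6.3), and they deposited whole-number read counts per gene. FastQC (0.72) and limma (3.40.6) are also listed there. The notes give hg38 and the methods GRCh37 as the build. The annotation and strand setting are not given in the sources used here. A low-count filter had been applied: each of 12798 rows had over 0.5 CPM in at least 3 libraries. Rows without a gene number (1052, with 1.34% of reads) were left out of library sizes and tests, and 0 other value columns were present. Symbols came from the RefSeq gene table, which matched 11740 of 11746 rows.

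Counts were filtered with filterByExpr, scaled by TMM and fitted with edgeR (4.0.16, R 4.3.3, robust quasi-likelihood, group only, all libraries in one fit), with Benjamini-Hochberg adjustment over 11064 features and a threshold of 0.05. The scripts were tested on simulated data. Log2 CPM used a prior count of 2. The members and gene lists were chosen with earlier results of these data known. For the list of transcription factors, 2 genes are not reported here and were left out of its counts without regard to their values. By rule, the text names from each list the genes past the threshold with both guides, at most the 3 with the largest mean fold change. For the IGF axis it names those past it with either guide. Genes past the threshold that are named beyond this rule were named after their values were seen. Among them are TTR, APOH, RBP4, FGA and FGG of the secreted proteins. Profile likeness used features averaging 50 counts or more. The fits were repeated with a block for the replicate number, with other scalings, limma-voom (limma 3.58.1), DESeq2 (1.42.0), other filters, fits of 2 groups, and leaving out each library. No 2 libraries of a group agreed within sampling noise (chi-square over its degrees of freedom from 4.63 to 24.1).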

Additional observations from a re-analysis of the deposited data

How the results depend on the processing

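Each of the 540 log2 fold changes of the 9 genes under another setting stayed within 1 replicate SD of its value, and none changed sign among those called. AFP and ALB were called lower with both guides in every setting run, and IGF2 with sgKeap1-2 in every setting. With sgKeap1-1 IGF2 was called by DESeq2, in a fit of those groups alone and without replicate 3 of sgKeap1-2, and not otherwise, so 2 to 3 genes of the list were called there as single libraries were left out. Between the guides 0 of the 9 were called, against 2 with the replicate block (AFP, ALB), 2 by DESeq2 (AFP, IGF2), 1 without replicate 2 in all groups (AFP, a setting added after seeing the data), and 0 to 1 as single libraries were left out, the 1 being IGF2 without replicate 3 of sgKeap1-2. Of 105 further genes tested, 11 rose with sgKeap1-1, against 19 with the replicate block. With at least 10 counts in every library, which tests fewer features, 7 rose. With sgKeap1-2 17 rose, against 13 in that setting. IGFBP6, NOTCH3, HEY1 and PDGFA had fewer than 10 reads in at least 1 sgCtrl library and were not tested in it. Those lower with sgKeap1-1 numbered 12, against 17 with the replicate block. As single libraries were left out they numbered 6 to 13 (6 without replicate 1 of sgKeap1-1, 7 without replicate 1 or 3 of sgCtrl). Those lower with sgKeap1-2 numbered 23, against 31 with the replicate block, 24 by limma-voom and 15 to 23 as single libraries were left out (15 without replicate 1 of sgCtrl). Over all features the block called 412 and 948 lower with the first and the second guide, against 155 and 537 without it. Calls of single genes were mostly lost without replicate 1 or 3 of sgCtrl or replicate 1 of either guide. The cause was not tested.

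The replicate number as a block gave 978, 1956 and 26 calls over all features for sgKeap1-1, sgKeap1-2 and the guides against each other, against 465, 1197 and 2 without it. DESeq2 gave 19 and limma-voom 0 for the last. Without replicate 1 of sgCtrl, 278 and 764 features were called against that group, 70 and 314 of them lower. With all libraries 155 and 537 were lower. Without replicate 1 of sgKeap1-1, 78 were lower with that guide. With the block DLK1 was also called higher with sgKeap1-2, which made 4 genes of the list called there in place of 3, and IGFBP1 was at 0.08 and -0.30 with the guides (SE 0.13 for each, against 0.83 without the block). Deviations from the group mean correlated between same-numbered libraries by 0.229 on average (-0.0129 to 0.521, over 0.1 in 7 of 9 pairs), against -0.116 between differently numbered ones (over 0.1 in 3 of 18 pairs). In replicates 2 and 3 all pairs were over 0.1 and in replicate 1 only 1 of 3 was, and 7 of 9 libraries correlated best with their own number. This is a hint of pairing from the data. The block was kept as an alternative because pairing was accepted only where every pair was over 0.1.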
